A study of Mus musculus with 18 samples.

Results

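The antiviral effector genes Mx1, Mx2, Oas1b, Oasl2, Ifit1, Ifit3, Isg15 and Rsad2 were taken by symbol from the table of log2 fold changes that the authors deposited, in which all 8 were found among 12205 genes. Primary astrocytes of newborn wild-type C57BL mice, male and female pooled, were grown either without cytokines for 120 h, or for 96 h or 72 h and then for a further 24 h or 48 h in the presence of TNFα (20 ng/ml) together with IL-1β (0.25 ng/ml). All 3 conditions therefore ended at the same age of culture, and neither cytokine is an interferon. RNA and ribosome footprints, the stretches of mRNA of 26 to 34 nt that ribosomes shield from RNase I, were sequenced from parts of the same lysates in 3 batches per condition, 18 libraries in all. The authors' deposited table gives 1 value per gene and comparison, for RNA, for footprints and for translation efficiency, which is the change in footprints relative to that in RNA. No value per batch was at hand, so no difference below could be set against the spread between batches and none was tested. A gene is called higher where its log2 value reaches 1 and lower where it reaches -1, which is a rule of size and no test.

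These genes belong to the antiviral programme that interferons switch on in most cell types of the body, astrocytes included. Type I interferon binds the receptor of Ifnar1 and Ifnar2, whose kinases Jak1 and Tyk2 activate Stat2. A complex that holds Stat2 and Irf9 binds interferon-stimulated response elements in the promoters of effector genes. Mx proteins are dynamin-like GTPases that block incoming viral particles, and mouse Mx1 acts in the nucleus against influenza virus. Oligoadenylate synthetases sense double-stranded RNA and answer it by making short oligoadenylate messengers. Oas1b, a member of that family without synthetase activity, is known in mice for resistance to flaviviruses, and Oasl2 carries ubiquitin-like domains beside its synthetase part. Ifit1 binds viral mRNA whose cap lacks methylation that host mRNA has, and Ifit3 is its relative, which in human cells binds and stabilizes IFIT1. Isg15 is a ubiquitin-like protein that is joined to other proteins. Rsad2, or viperin, is a radical SAM enzyme that turns CTP into a chain terminator of viral RNA synthesis.

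The 8 genes lie on 5 chromosomes, and 3 of them are not listed as protein-coding in the mouse reference. RefSeq, on the C57BL/6J assembly GRCm38.p6, lists Mx1 (chr16:97447035-97462906), Mx2 (chr16:97536081-97560901) and Oas1b (chr5:120812635-120824163) as transcribed pseudogenes. Common laboratory strains, C57BL/6 among them, are known to carry defective alleles of these genes. The labels give the strain as C57BL without a substrain, and which alleles these cells carried was not analysed here. The other 5 are listed as protein-coding: Oasl2 (chr5:114896926-114912245), Ifit1 (chr19:34640889-34650009), Ifit3 (chr19:34583119-34588982), Isg15 (chr4:156199424-156200818) and Rsad2 (chr12:26442743-26456452).

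Because all 8 genes were higher at 24 h, the promoters at hand were searched for the element through which interferon signalling reaches such genes. The RefSeq promoter table held 5 of the 8, the protein-coding ones. The 250 bases before each start site are printed 5′ to 3′ on the strand of the gene (GRCm38.p6), with capitals marking matches to the response element core GAAANNGAAA or its reverse complement TTTCNNTTTC. The start site is that of the promoter table, which for Ifit3 lies 410 bases and for Oasl2 8 bases inside the gene span given above, so the window of Ifit3 lies within that span.
Isg15, chr4:156200819-156201068, minus strand: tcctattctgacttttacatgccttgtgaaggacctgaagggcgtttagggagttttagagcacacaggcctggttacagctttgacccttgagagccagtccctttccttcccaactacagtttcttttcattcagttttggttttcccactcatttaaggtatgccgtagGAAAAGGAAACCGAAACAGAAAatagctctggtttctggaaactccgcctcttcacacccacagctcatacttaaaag
Ifit1, chr19:34640639-34640888, plus strand: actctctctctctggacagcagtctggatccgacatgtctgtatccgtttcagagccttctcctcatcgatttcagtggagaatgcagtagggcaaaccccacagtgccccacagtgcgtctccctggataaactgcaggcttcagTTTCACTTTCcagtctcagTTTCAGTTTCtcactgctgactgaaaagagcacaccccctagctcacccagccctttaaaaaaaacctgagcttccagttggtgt
Ifit3, chr19:34583279-34583528, plus strand: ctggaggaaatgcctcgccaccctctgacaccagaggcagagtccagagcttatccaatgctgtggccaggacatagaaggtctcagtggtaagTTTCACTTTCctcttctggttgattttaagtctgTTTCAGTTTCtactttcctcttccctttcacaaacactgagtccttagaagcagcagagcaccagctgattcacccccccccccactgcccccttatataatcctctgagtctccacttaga
Rsad2, chr12:26456453-26456702, minus strand: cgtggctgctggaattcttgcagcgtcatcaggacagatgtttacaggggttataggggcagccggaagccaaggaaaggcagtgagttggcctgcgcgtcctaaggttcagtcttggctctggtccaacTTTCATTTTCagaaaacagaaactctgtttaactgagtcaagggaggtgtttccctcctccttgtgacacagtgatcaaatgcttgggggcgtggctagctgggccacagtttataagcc
Oasl2, chr5:114896684-114896933, plus strand: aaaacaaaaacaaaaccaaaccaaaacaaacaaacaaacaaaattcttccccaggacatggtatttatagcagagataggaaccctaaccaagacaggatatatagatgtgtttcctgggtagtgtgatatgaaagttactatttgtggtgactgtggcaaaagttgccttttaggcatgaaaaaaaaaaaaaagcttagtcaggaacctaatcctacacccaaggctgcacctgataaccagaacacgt

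The core was found in 4 of these 5 promoters, and in 978 of the 32841 promoters of the same length in the RefSeq table (2.98%). It was also found in 5 of 7 of their relatives described below, among them Oas1c. RNA of Oas1c stood at 0.26 at 24 h in the authors' deposited table. Of the other antiviral effectors 8 of 36 held it, and of the signal transducers 2 of 12. It was found in 0 of 6 genes of Isg15 conjugation, 0 of 5 around oligoadenylate and RNA sensing and 0 of 4 interferon receptor genes. Whether the core goes with the changes was not tested. In Isg15 there were 3 matches that overlap each other, between -78 and -57 counted from the start site. Ifit1 held a match from -104 to -95 and another from -85 to -76, and Ifit3 held a match from -156 to -147 and another from -122 to -113. Rsad2 held 1 match, from -120 to -111. No match was found in the window of Oasl2. Both strands were also searched for the gamma-activated site TTCNNNGAA, present in 7.02% of all promoters, and for the kappa-B consensus that NF-kB is known to bind, present in 3.90%, and neither was found in these 5 windows. At such low shares most sets of 5 windows would hold neither, so their absence tells little about these genes. These matches are letters in a sequence, and no binding was measured.

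**Figure D1:**
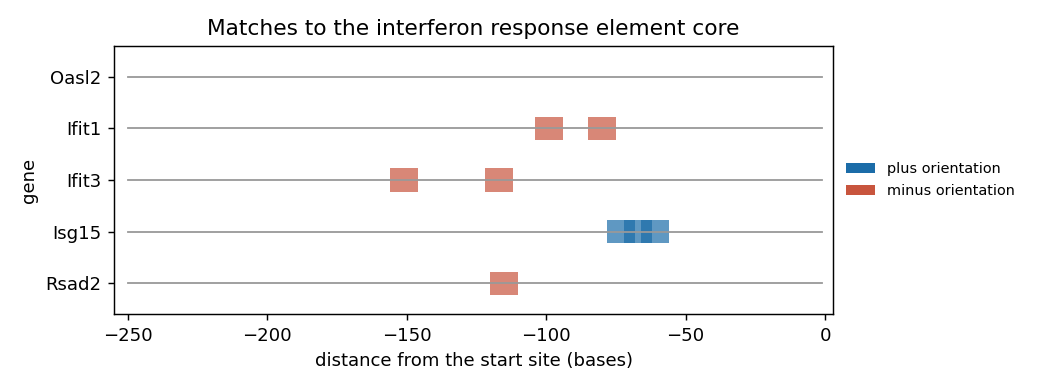
Matches to the interferon-stimulated response element core in the 250 bases before the start site of 5 effector genes. The x axis is the distance from the start site in bases, each grey line is one promoter, and boxes are matches, blue in the plus and red in the minus orientation. Matches lie between -156 and -57 in 4 genes, and Oasl2 has none.

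After 24 h of TNFα and IL-1β, all 8 genes were higher by at least 1 in RNA, where 7.54% of all genes were, and all 8 in footprints, where 7.87% were. Their median log2 value was 4.04 in RNA and 3.75 in footprints, beside medians of -0.03 and 0.01 over all 12205 genes. In bulk cultures fewer cells of a type and less RNA per cell cannot be told apart, and the same holds for more. At 48 h, 7 of 8 were higher by at least 1 in RNA (8.11% of all genes) and 7 of 8 in footprints (8.13%), with medians of 2.54 and 2.20. The comparisons at 24 h and 48 h share the same untreated libraries.

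Both Mx genes were higher, Mx1 by the larger amount in RNA. In the authors' deposited table the RNA of Mx1 stood at 5.96 at 24 h, a 62.4-fold difference, and at 3.90 at 48 h, a 14.9-fold difference. Its footprints stood at 3.91 and then at 0.74 in the authors' deposited table, so that at 48 h the RNA was above the threshold and the footprints were below it. The RNA value of Mx1 at 24 h was the highest of the 8 genes and its footprint value at 48 h the lowest. Mx2, its neighbour 73175 bases away on chromosome 16, stood at 3.47 and 2.37 in RNA with footprints at 2.99 and 1.46 in the authors' deposited table. Footprints of Mx2 thus lay below RNA at both times, by a smaller margin than those of Mx1. Fold changes compare a gene with its own untreated level, and the table gives no levels, so they do not rank the genes by abundance.

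Among the synthetase relatives Oasl2 was far higher and Oas1b less so. For Oasl2 the authors' deposited table gave 4.25 in RNA and 3.76 in footprints at 24 h, and 3.09 and 2.68 at 48 h. Oas1b had the lowest RNA values of the 8 genes, at 2.02 at 24 h and 0.97 at 48 h in the authors' deposited table, the second just under the threshold. Its footprints stood at 2.48 and 1.34 in the authors' deposited table, above its RNA at both times. Oas1b lies 95 bases from Oas1c in a cluster of closely related synthetase genes, so reads may be shared and its values are uncertain to that extent.

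Ifit1 stood above Ifit3 in RNA and in footprints at both times. The values of Ifit1 were 4.74 in RNA and 4.25 in footprints at 24 h in the authors' deposited table, and 3.66 and 3.26 at 48 h, the highest footprint value of the 8 at that time. Ifit3 stood at 3.82 and 3.74 at 24 h, and at 2.49 and 2.14 at 48 h in the authors' deposited table. Ifit3b, a near-identical copy 18548 bases from Ifit3, stood at 4.63 in RNA at 24 h in the authors' deposited table, and reads of this pair may be shared.

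Isg15 had the highest footprint value at 24 h. The authors' deposited table gave Isg15 4.26 in RNA and 5.06 in footprints at 24 h, differences of 19.1-fold and 33.4-fold. At 48 h it gave 2.58 and 2.96, differences of 5.97-fold and 7.80-fold in the authors' deposited table. Isg15 and Oas1b were the genes whose footprints lay above RNA at both times. Rsad2 stood at 3.79 in RNA and 3.27 in footprints at 24 h in the authors' deposited table, and at 2.23 and 2.25 at 48 h, so its RNA and footprints were nearly level at the later time. None of the neighbouring values in these orders could be set against a replicate error.

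**Figure D2:**
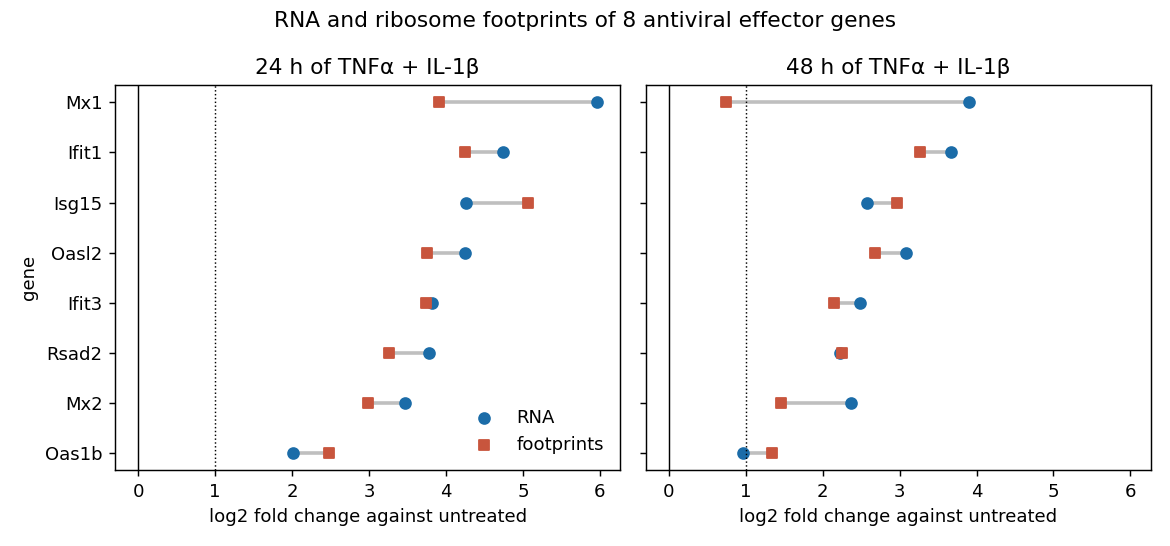
Log2 fold changes of the 8 genes against untreated cells in RNA (circles) and ribosome footprints (squares) after 24 h (left) and 48 h (right). Each row is a gene, ordered by RNA at 24 h, and the dotted line marks 1. All points lie right of 1 at 24 h, and at 48 h the footprints of Mx1 (0.74) and the RNA of Oas1b (0.97) lie left of it.

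Every one of the 8 genes stood lower at 48 h than at 24 h, in RNA and in footprints, as 51.0% and 49.4% of all genes did by any amount. The difference, computed here as the value at 48 h minus that at 24 h, was at most -1 in RNA for 8 of 8 genes, where 0.926% of all genes lay that low. In footprints it was for 7 of 8, where 1.07% did. Among the 920 genes that were higher by at least 1 in RNA at 24 h, 61 (6.63%) were lower by at least 1 at 48 h, with a median difference of -0.03. Of the 961 such genes in footprints, 68 (7.08%) were, with a median of -0.09. The 8 genes are part of these 920 and 961. Their own median differences were -1.25 in RNA and -1.33 in footprints.

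The size of the later drop varied among the genes. In RNA the differences ran from -1.05 for Oas1b, whose amount at 48 h was 48.3% of that at 24 h, to -2.06 for Mx1 (23.9%). Isg15 (31.2%), Rsad2 (34.0%) and Ifit3 (39.9%) lay between, and Oasl2 (44.5%), Mx2 (46.7%) and Ifit1 (47.5%) lay near Oas1b. In footprints Ifit1, at -0.98, just missed the threshold and was at 50.5% of its amount at 24 h. Footprints of Mx1 were at 11.1% of their amount at 24 h and those of Isg15 at 23.3%. For Rsad2 the drop was smaller in footprints (-1.01) than in RNA (-1.55), and for Isg15 it was larger in footprints (-2.10) than in RNA (-1.68). With 1 value per comparison these differences between RNA and footprints were not tested.

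**Figure D3:**
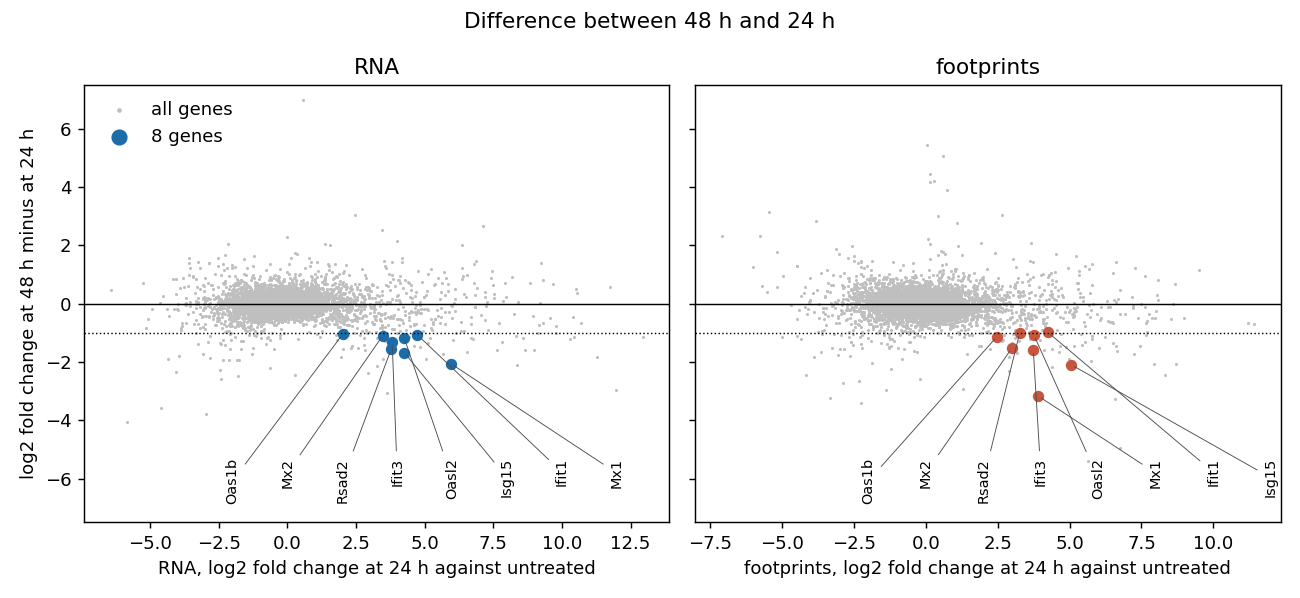
Difference between 48 h and 24 h (y axis, log2) against the log2 fold change at 24 h (x axis) in RNA (left) and footprints (right). Grey points are all 12205 genes, coloured points are the 8 effector genes, and the dotted line marks -1. All 8 lie at or below about -1, from -1.05 to -2.06 in RNA and from -0.98 to -3.17 in footprints.

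Translation efficiency of the 8 genes divided in sign, and 1 of them passed the threshold. At 24 h the deposited values had a median of -0.46, with Mx1 lower by at least 1 (1.32% of all genes were) and 0 of 8 higher (1.79%). At 48 h the median was -0.37, with Mx1 again lower (1.71%) and 0 higher (2.85%). In the authors' deposited table Mx1 had translation efficiency values of -1.72 and -1.67, with 99.5% of all genes above it at each time. Isg15 stood at 0.75 and then 0.21, and Oas1b at 0.82 and 0.89 in the authors' deposited table. The remaining genes lay between -0.65 and 0.15 at both times: Mx2, Oasl2, Ifit1 and Ifit3 were below 0 at both, and Rsad2 stood at -0.46 and then 0.15 in the authors' deposited table. Between 24 h and 48 h none of the 8 genes differed by 1 in deposited translation efficiency, where 0.533% of all genes were higher and 0.647% lower. The differences of the 8 genes ran from -0.54 for Isg15 to 0.61 for Rsad2.

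The deposited translation efficiency did not always equal footprints minus RNA. Over all genes it lay within 0.1 of that difference in 79.5% at 24 h and 78.0% at 48 h, and among the 8 genes in 6 and 3. For Mx1 at 48 h footprints minus RNA gave -3.16, against -1.67 in the authors' deposited table, and 99.6% of all genes lay within 1 of their difference at that time. For Oas1b at 48 h it gave 0.37, against 0.89 in the authors' deposited table. The sources used here do not give how the authors computed these columns. The size of the translation values of Mx1 and Oas1b against untreated is therefore uncertain, while their sign is the same both ways. Between the times the 2 ways differ in direction for Mx1. Its deposited difference was 0.06, while footprints minus RNA went from -2.05 at 24 h to -3.16 at 48 h.

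**Figure D4:**
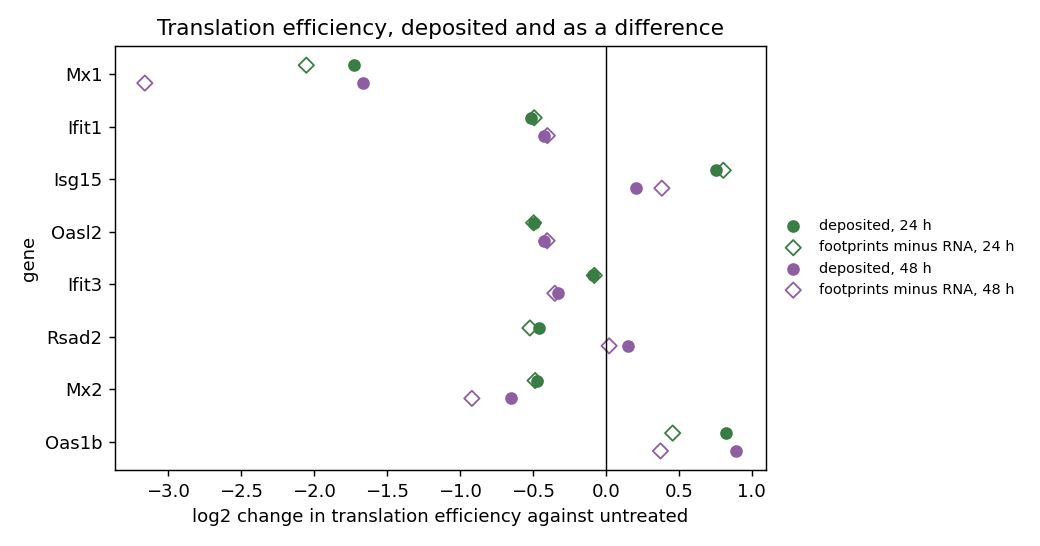
Change in translation efficiency (log2, against untreated) of the 8 genes as deposited (filled circles) and as footprints minus RNA (open diamonds), at 24 h (green) and 48 h (purple). The 2 ways lie close together for Oasl2, Ifit1 and Ifit3 and far apart for Mx1 at 48 h (-1.67 and -3.16).

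Close relatives of the 8 genes were mostly higher as well. Of 14 further Oas and Ifit genes listed, 8 had a value, and 7 of these were higher by at least 1 in RNA at 24 h, with a median of 3.83. The highest were Oas2 (5.19) and Oas1a (4.94), both synthetases, and Oas1c stood at 0.26 in the authors' deposited table. Ifit2 stood at 1.20 at 24 h and 0.05 at 48 h, and Ifit1bl2 at 1.44 and 0.81, in the authors' deposited table. Of the 8 relatives, 5 were lower by at least 1 at 48 h than at 24 h in RNA, with a median difference of -1.17. Oas3, a long synthetase, had higher footprints (4.86) than RNA (3.50) at 24 h and a translation efficiency of 1.38 in the authors' deposited table.

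RNA sensors were higher, and the 3 other genes around oligoadenylate and RNA sensing stayed below the threshold. Of 6 genes, 3 were higher by at least 1 in RNA at 24 h and 0 lower, with a median of 1.29. The RNA sensors Dhx58 (2.98), Ifih1 (2.37) and Ddx58 (2.16) were the higher ones, and their adaptor Mavs stood at -0.44 in the authors' deposited table. Pde12 (0.40), which degrades oligoadenylate, and Abce1 (0.43), a ribosome recycling factor, were below the threshold at 24 h in the authors' deposited table. None of these 6 was lower by 1 at 48 h than at 24 h, and their median difference was -0.27.

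The genes that join Isg15 to proteins and remove it were higher too. Of 7 listed, 5 were higher by at least 1 in RNA at 24 h and 5 at 48 h, with medians of 2.13 and 1.22. The activating enzyme Uba7 stood at 2.13, the conjugating enzyme Ube2l6 at 3.98 and Herc6, the main ligase in mouse, at 2.89 at 24 h in the authors' deposited table. Usp18, the protease that removes Isg15, stood at 3.27, and the ligase Trim25 at 1.57 in the authors' deposited table. Herc3 (-0.05) and Arih1 (0.17) were near 0 in the authors' deposited table. Between 24 h and 48 h Ube2l6 differed by -0.53 in RNA and Usp18 by -1.17, beside -1.68 for Isg15 itself.

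Receptor subunits of the interferon family were modestly higher at both times. All 5 measured genes of 13 listed were receptor subunits. The other 8, the interferon genes and the receptor gene Ifnlr1, had no value under the symbols searched. In RNA at 24 h 4 of the 5 were higher by at least 1, with Ifngr1 at 1.65, Ifnar2 at 1.31 and Ifnar1 at 0.80 in the authors' deposited table. Each of the 5 stood slightly higher in RNA at 48 h than at 24 h, by 0.09 to 0.30. Of 12 signal transducers with a value, 5 were higher by at least 1 in RNA at 24 h and 3 at 48 h, with a median of 0.71 at 24 h. Irf7, a factor that amplifies interferon responses, stood at 4.38 and then 2.59 in the authors' deposited table. Irf1, a related factor, stood at 3.18 and then 2.74, and the kinase gene Jak2 at 2.99 and then 3.22 in the authors' deposited table. In the complex that binds the response element, Stat2 stood at 1.40 and then 0.65 and Irf9 at 1.14 and then 0.76 in the authors' deposited table.

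Of 45 other antiviral effectors with a value, 36 were higher by at least 1 in RNA at 24 h and 0 lower, with a median of 2.19. The highest were Ch25h (9.32), which makes an antiviral oxysterol, the nucleic acid sensor Zbp1 (6.68) and the guanylate-binding protein Gbp2 (6.68) in the authors' deposited table. The lowest were Ifitm10 (-0.57), the nucleotide hydrolase Samhd1 (0.38) and N4bp1 (0.54) in the authors' deposited table. In RNA 6 of the 45 were lower by at least 1 at 48 h than at 24 h, with a median difference of -0.53, against 8 of 8 and -1.25 for the effector genes described here. The lists were not tested against each other. The 9 guanylate-binding protein genes, which also answer interferons, had a median of 6.68 at 24 h and a median difference of -0.96, with 3 of 9 lower by at least 1. Gbp2 (-1.18) and Gbp3 (-1.34) belong to both lists and are part of both counts of lower genes.

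**Figure D5:**
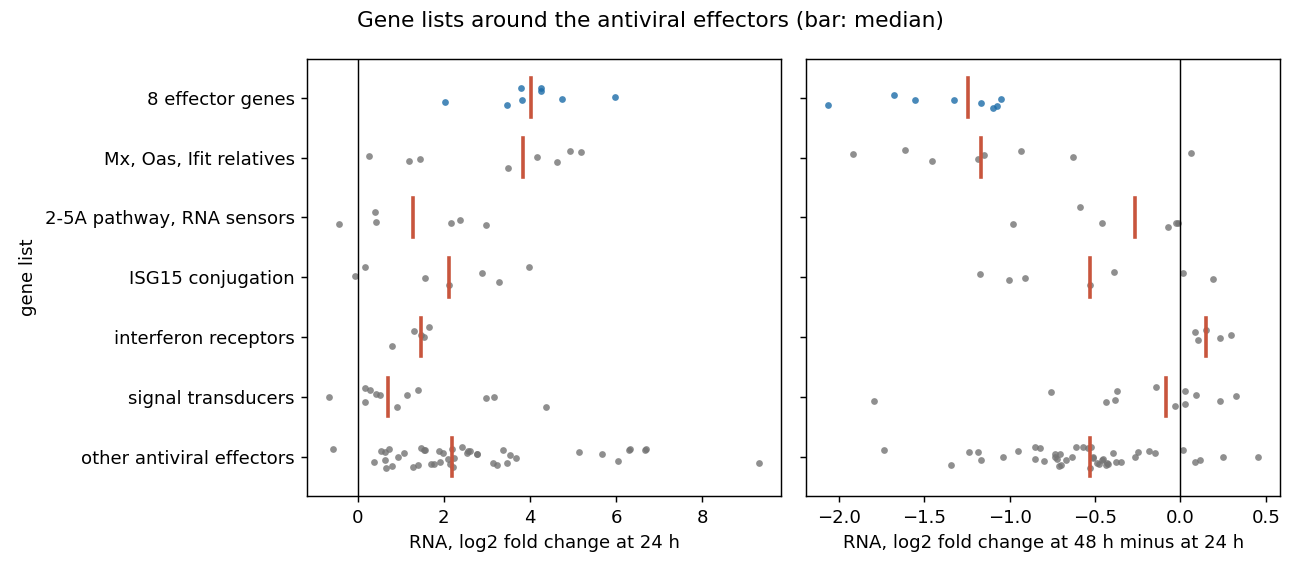
RNA log2 fold change at 24 h (left) and difference between 48 h and 24 h (right) for the 8 effector genes (blue) and 6 related gene lists (grey). Each point is a gene and red bars are medians. The 8 genes have a median of 4.04 at 24 h and of -1.25 in the difference, and the interferon receptor genes all lie just above 0 in the difference.

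The genes whose values were most like those of the 8 were sought among the other genes of the table. Likeness was the Euclidean distance over 4 values, RNA and footprints at 24 h and 48 h, which share untreated libraries. Nearest to the median of the 8 were Syt7 (distance 0.51), a synaptotagmin, the synthetase relative Oasl1 (0.59), Irf7 (0.64), Ly6e (0.64) and the immunity-related GTPase gene Igtp (0.68). Among the single genes, Mx2 was nearest to Apol9b (0.18) and Oasl2 to Gbp7 (0.23). Mx1 had no close match, since the nearest gene, Il20rb, lay at 1.98. Within the 8, Rsad2 and Ifit3 lay closest together (0.55) and Mx1 and Oas1b farthest apart (5.16).

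Markers of other cells were checked because microglia also answer interferon. Of 13 markers of microglia and macrophages, 3 had a value (Cd68, Adgre1 and Tmem119), with RNA values from 0.18 to 1.80 at 24 h and from 0.09 to 7.55 at 48 h, the last that of Adgre1. Cd68, a lysosomal protein of macrophages, stood at 1.80 at 24 h and 0.56 at 48 h in RNA in the authors' deposited table, a difference of -1.24 beside the median of -1.25 of the 8 genes. Its footprints stood at 0.69 and 0.26 in the authors' deposited table, a difference of -0.43 beside the median of -1.33 of the 8 genes. Between the times the RNA of Adgre1 differed by 6.98 and that of Tmem119 by -0.09, so the 3 markers did not move together. For Adgre1 RNA and footprints were 0.57 and 0.73 at 24 h while its translation efficiency was -1.79 in the authors' deposited table, and these do not match each other. Of 12 astrocyte markers, all with a value, 2 passed 1 upwards and 6 downwards in RNA at 24 h, and 1 and 7 did at 48 h. RNA medians at 24 h were -0.36 for 5 oligodendrocyte, -0.94 for 4 neuronal, -1.03 for 4 endothelial, and -0.28 for 7 fibroblast and mural markers. The table holds changes and no levels, so the share of each cell type could not be read from it, and its part in the values of the effector genes was not tested.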

How the data were processed

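RNA-seq and ribosome profiling of primary mouse astrocytes gave 18 libraries in 6 groups of 3 batches, grouped by their titles. TopHat2, featureCounts and the build mm10 are named, without versions, in the submitters' processing notes. The normalization, the combination of batches and the formula of the fold changes are not given in the sources used here. Log2 values were deposited by the authors, 1 per gene for each of 6 comparisons with untreated cells. Translation efficiency, whose header names no scale, was read as log2 because most values lie near footprints minus RNA. Without counts, the depth of each library and its precision are unknown.

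From these values, differences between 48 h and 24 h, fold changes, counts at a threshold of 1, medians, distances and promoter matches were computed with Python 3.11.15 and pandas 2.3.3. No gene was filtered out. Counting was tested on simulated data. A test across batches was not possible, so the size rule planned for that case applied. Members, gene lists and the rules for them were chosen with earlier results of these data known. Named genes were all members, genes with a value from the lists of relatives, oligoadenylate and RNA sensing, Isg15 conjugation, receptors and transducers, the 3 highest and 3 lowest other effectors, and the nearest genes. Markers, guanylate-binding proteins and genomic neighbours were named after their values were seen. The alternatives were other thresholds, centring, left-out genes, means and footprints minus RNA. Sequences and positions came from RefSeq, GRCm38.p6. A few genes are not reported here.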

Additional observations from a re-analysis of the deposited data

How the results depend on the processing

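Of 48 alternative counts of called genes, 34 stayed within 1.5 times the count given. Other thresholds and left-out genes change no value, so they could not reverse the direction of a call. Subtracting the median of all genes and leaving out Ifit3 and Oas1b, which may share reads with closely related neighbours, moved no count beyond 1.5 times. Leaving out genes changes only how many are counted, so it does not show whether shared reads matter. Leaving out Mx1, Mx2 and Oas1b left 5 genes called in RNA and 5 in footprints at 24 h, and 5 and 4 in the differences between 48 h and 24 h, since fewer genes were counted. It left 0 called in translation efficiency at 24 h and 0 at 48 h, since Mx1 had been the called gene. At a threshold of 0.5, 4 genes were called in translation efficiency at 24 h (2 higher and 2 lower), 3 at 48 h (1 higher and 2 lower) and 2 between the times (1 each way), where a threshold of 1 gave 0 higher in each. At a threshold of 2, 0 were called in translation efficiency at 24 h and 0 at 48 h, and between the times 1 was in RNA and 2 were in footprints. With footprints minus RNA, 1 gene, Mx1, was called lower in translation efficiency between the times, although its deposited difference was slightly above 0. The share of all genes called was not counted at thresholds of 0.5 and 2 or with footprints minus RNA. Whether the counts of effector genes at these settings exceed that share is therefore unknown. The median difference in translation efficiency between the times was 0.06 and the mean -0.0085, both near 0. No paired analysis was possible because the table holds 1 value per comparison and none per batch. For the same reason no batch could be left out, and depth sets a limit that is unknown here.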

Other observations

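Genes next to the effector genes in the RefSeq order did not all share their values. These neighbours were chosen for their position after the values of the effector genes were seen. Cmpk2, a nucleotide kinase gene that lies 12665 bases from Rsad2, stood at 1.08 in RNA at 24 h and 0.05 at 48 h in the authors' deposited table, beside 3.79 and 2.23 for Rsad2. On its other side Rnf144a stood at 0.40 at 24 h in the authors' deposited table. Agrn, 1891 bases from Isg15, stood at 0.66, Bace2, 4099 bases from Mx1, at -1.18, and Slc16a12, 18392 bases from Ifit1, at -1.98 at 24 h in the authors' deposited table. Oasl1, 10898 bases from Oasl2, stood at 4.17 at 24 h in the authors' deposited table. On the other side of Ifit1, Ifit1bl2 lies 62 bases away and stood at 1.44 at 24 h in the authors' deposited table. Ifit2, 6585 bases from Ifit3, stood at 1.20 and Oas1c, 95 bases from Oas1b, at 0.26 at 24 h in the authors' deposited table.

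A few antiviral genes stood higher at 48 h than at 24 h in RNA, the opposite order to the 8 effector genes. Of the 45 other antiviral effectors 5 did, and these were picked after their values were seen. Ifitm1, a membrane protein that hinders virus entry, stood at 1.88 and then 2.34, and Ifitm2 at 1.57 and then 1.82, as the authors' deposited table gives their RNA. In footprints Ifitm1 stood at 2.74 and 2.89 and Ifitm2 at 2.26 and 2.18 in the authors' deposited table. Ifitm3 stood at 2.14 and 1.95 in RNA in the authors' deposited table. These differences between the times are below 0.5 and were not tested.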
